A study of Mus musculus with 6 samples.

Results

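The genes described are those of the amino acid transporter families of the plasma membrane, in adipocytes differentiated in culture from 3 mouse fat depots. They were chosen from the deposited count table by symbol, as a name of the solute carrier families Slc1, Slc3, Slc6, Slc7, Slc38 or Slc43 that ends in the member's number. Slc6a8, a creatine transporter, was left out, and Slc6a20a and Slc6a20b, which end in a letter, were not matched. The rule found 54 of the 20295 genes in the table. Of these, 37 had at least 10 read counts summed over the 6 libraries and are reported here, 13 had 1 to 9 counts, and 4 (Slc6a14, Slc7a12, Slc38a5 and Slc38a8) had none. The filter on low counts kept 26 of the 37 for testing. By family, the reported genes were 7 of 7 in Slc1, 1 of 2 in Slc3, 9 of 16 in Slc6, 10 of 15 in Slc7, 7 of 11 in Slc38 and 3 of 3 in Slc43.

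Each group had 2 libraries: brown fat (BAT), pooled from the interscapular, cervical and axillary pads, inguinal white fat (iWAT) and epididymal white fat (eWAT). All cells were stromal-vascular cells, the mixture that collagenase releases from fat, of male NMRI mice aged 4 to 5 weeks. Every culture was given serum of newborn calves at 10%, insulin at 30 nM and, at 1 µM, rosiglitazone, which activates the adipogenic receptor Pparg. Harvest was 8 days after plating. Cultures were used only if more than 50% of the cells had differentiated. No genotype, strain or treatment differed between the groups. Whether a depot's replicates were separate cultures, or came from separate mice, is not stated, so p-values measure only the spread between these libraries, which may be technical.

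Amino acid transporters move amino acids across the cell surface by coupling them to sodium, by exchanging one amino acid for another, or by letting charged ones pass down their gradient. The light chains of the Slc7 family work only in a disulphide-linked pair with a heavy chain of the Slc3 family, which brings them to the membrane. In fat cells, imported amino acids supply protein synthesis, the mTORC1 growth signal, glutathione synthesis and, after breakdown of branched-chain amino acids, fuel and lipid. Not every member of these families fits the family's name: some Slc6 proteins carry monoamines or GABA, Slc38a7 and Slc38a9 act at the lysosome, and Slc43a3 carries purine bases.

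Total counts per library ran from 2889038 to 4807449, and 3 counts equalled 0.624 to 1.038 CPM, the counts scaled to a common library total. The adipocyte gene Adipoq averaged 1817 ± 500.4 CPM in BAT, 1515 ± 123.2 in iWAT and 1898 ± 704 in eWAT (SD, n = 2, as for every mean below). The brown fat gene Ucp1 averaged 7109 ± 3090, 1055 ± 84.5 and 61.3 ± 2.28 CPM in BAT, iWAT and eWAT. The cultures also differed in markers of other cells. The summed level of 12 macrophage markers was 457.7 and 100.6 CPM in the BAT libraries, 686.5 and 201.6 in iWAT, and 5015 and 2202 in eWAT, and none of the 12 was at 0 throughout. That of 10 fibroblast and preadipocyte markers was 3965 and 2916 CPM in BAT, 19400 and 20760 in iWAT, and 17090 and 18590 in eWAT. A single gene made up most of each sum. Lyz2 gave 323.1 and 61.18 CPM of the macrophage sum in BAT, 456.6 and 119.2 in iWAT, and 3633 and 1443 in eWAT. Col3a1 gave 3004 and 2269 CPM of the fibroblast sum in BAT, 13790 and 16450 in iWAT, and 12420 and 14650 in eWAT. In such bulk RNA, fewer cells of a type and less RNA per cell cannot be told apart.

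The promoters of 2 genes that were lower in BAT, Slc7a8 and Slc7a10, are shown because these are the light chains with depot differences, and that of Slc7a11 because it holds the match described with the amino acid response genes. They are RefSeq windows of 300 bases in build GRCm38.p6, from 250 bases before the transcription start to 50 from it, read 5′ to 3′ on the gene's strand. Capitals mark GGGCGG, the GC box, on either strand in Slc7a8 (chr14:54781837-54782136, minus strand) and Slc7a10 (chr7:35186135-35186434, plus strand), and TGATGNAA on either strand in Slc7a11 (chr3:50443564-50443863, minus strand).
Slc7a8: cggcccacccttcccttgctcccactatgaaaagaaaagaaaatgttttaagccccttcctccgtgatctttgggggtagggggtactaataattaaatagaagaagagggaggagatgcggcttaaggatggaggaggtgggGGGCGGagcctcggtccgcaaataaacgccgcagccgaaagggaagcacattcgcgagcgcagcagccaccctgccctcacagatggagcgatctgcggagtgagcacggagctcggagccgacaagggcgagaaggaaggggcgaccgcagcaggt
Slc7a10: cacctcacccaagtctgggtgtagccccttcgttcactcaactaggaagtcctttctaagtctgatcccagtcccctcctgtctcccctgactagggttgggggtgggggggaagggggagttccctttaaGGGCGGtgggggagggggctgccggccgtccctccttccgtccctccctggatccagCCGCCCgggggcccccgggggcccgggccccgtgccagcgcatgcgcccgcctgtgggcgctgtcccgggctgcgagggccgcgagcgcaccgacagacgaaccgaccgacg
Slc7a11: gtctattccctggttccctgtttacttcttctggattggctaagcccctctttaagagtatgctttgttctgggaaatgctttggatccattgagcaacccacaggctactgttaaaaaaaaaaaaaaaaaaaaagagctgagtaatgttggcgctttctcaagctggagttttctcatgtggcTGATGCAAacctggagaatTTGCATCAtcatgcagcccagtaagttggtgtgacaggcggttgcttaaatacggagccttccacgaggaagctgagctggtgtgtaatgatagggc
The window of Slc7a10 was 70.7% G and C with 2 GC boxes, that of Slc7a8 58.0% with 1, and that of Slc7a11 44.7%. GGGCGG occurred in 35.7% of all 32851 RefSeq promoter windows of this length, and in 26 of the 45 windows, from 27 genes, that matched the reported transporters. Windows of the same gene can overlap, as those of Slc7a7 do, so a site can be counted in several windows. A match is a description of the letters and not evidence of binding.

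Per length of gene, 1 transporter outweighed all others in every library. Slc1a5, which exchanges glutamine and other small neutral amino acids, reached 325.8 and 513.2 CPM per kilobase in BAT, 259.0 and 328.0 in iWAT, and 236.5 and 455.2 in eWAT. It made up from 39.3% to 66.0% of the summed CPM per kilobase of all 54 genes. Next by mean CPM per kilobase over the 6 libraries came the heavy chain Slc3a2 (47.0), the alanine and glutamine importer Slc38a2 (44.4), Slc38a10 (37.9), Slc43a3 (35.7), the glutamate transporter Slc1a3 (30.6), the light chain Slc7a6 (28.5) and the taurine transporter Slc6a6 (18.6). The depot ranges of Slc3a2 overlapped one another, as did those of Slc1a5. In every library the Slc1 family had the largest sum and the Slc38 family the next. The Slc43 sum was 17.4 and 16.7 CPM per kilobase in BAT, 31.5 and 43.0 in iWAT, and 75.1 and 65.5 in eWAT.

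**Figure D1:**
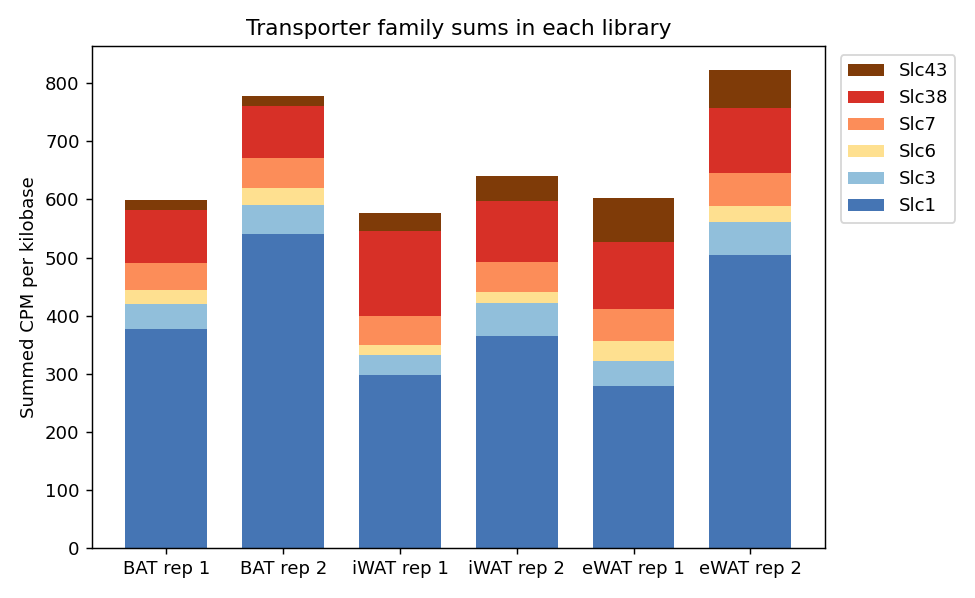
Stacked bars give the summed level of each transporter family (CPM per kilobase, linear axis) in each of the 6 libraries, with BAT at the left and eWAT at the right. Slc1, most of it Slc1a5, is the largest block in every library, and the Slc43 block measures 17.4 and 16.7 in BAT, 31.5 and 43.0 in iWAT, and 75.1 and 65.5 in eWAT.

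Between BAT and eWAT, 3 of the 26 tested transporters passed, and each was lower in BAT: the light chains Slc7a8 and Slc7a10 and the purine base transporter Slc43a3. None was higher. A gene was called at a Benjamini-Hochberg adjusted p below 0.05 over all 11732 tested genes, by the edgeR quasi-likelihood test on all 6 libraries. Over all tested genes, 6.46% were called in this contrast, 3.75% lower and 2.71% higher. An unadjusted p below 0.05 was found for 13 of the 26 transporters and for 25.9% of all tested genes. The median log2 fold change (BAT over eWAT) was -0.62 over the 26 transporters and -0.03 over all tested genes, and 19 of the 26 values were below 0, against 52.4% of all genes. Both BAT libraries lay below both eWAT libraries for 15 transporters, against 28.5% of all tested genes, and above them for 3 (Slc6a13, Slc7a6 and Slc38a4), against 26.8%. These families were not tested against other genes.

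Slc43a3 had 34.0 and 34.0 CPM in the BAT libraries, 65.0 and 96.3 in iWAT, and 177 and 152 in eWAT. The depots formed 3 levels with no overlap. It was lower in BAT than in eWAT by a log2 fold change of -2.27 ± 0.24 (SE; adjusted p = 0.0149). The difference between BAT and iWAT was -1.24 ± 0.23 (adjusted p = 0.0864) and that between iWAT and eWAT -1.03 ± 0.23 (adjusted p = 0.179), so neither passed. The call was lost without BAT replicate 2 (-2.27) and without eWAT replicate 1 (-2.15). Both of these fits also called fewer genes over all tested genes. Slc43a3 lies on mm9 chromosome 2 from 84776803 to 84798666 (NM_021398, plus strand).

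The other Slc43 genes, which encode carriers of large neutral amino acids such as leucine, did not pass. Slc43a2 had 9.72 and 11.5 CPM in BAT, 8.18 and 15.1 in iWAT, and 23.5 and 19.6 in eWAT, and its log2 fold change was -1.03 ± 0.35 for BAT over eWAT (adjusted p = 0.134) and -0.89 ± 0.35 for iWAT over eWAT (adjusted p = 0.49). Slc43a1 had 7.40 and 4.97 CPM in BAT, 13.5 and 9.55 in iWAT, and 9.55 and 10.8 in eWAT, with BAT below both other depots (BAT over iWAT -0.87 ± 0.35, adjusted p = 0.292). Per length, Slc43a3 exceeded Slc43a1 and Slc43a2 together by 3.03 and 3.61 times in BAT, 3.85 and 6.22 times in iWAT, and 9.46 and 8.22 times in eWAT.

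Among the heteromeric transporters, the heavy chain Slc3a2 (4F2hc) had 119 and 140 CPM in BAT, 94.1 and 158 in iWAT, and 122.5 and 160 in eWAT. The other heavy chain, Slc3a1, which serves kidney and gut epithelium, had 4 counts in all. Summed CPM per kilobase of the 6 light chains that pair with Slc3a2 was from 0.775 to 1.3 times that of Slc3a2 itself. The proportions among these light chains were not the same in each depot. Slc7a6, which exchanges cationic for neutral amino acids, took a fraction of 0.806 and 0.78 of the light chain sum in BAT, 0.662 and 0.561 in iWAT, and 0.508 and 0.496 in eWAT.

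Slc7a8 (LAT2), a carrier of neutral amino acids, had 6 and 0 counts in BAT, 40 and 20 in iWAT, and 84 and 57 in eWAT. In CPM these were 1.27 and 0 in BAT, 9.62 and 5.03 in iWAT, and 19.6 and 16.2 in eWAT. The depots again did not overlap. Its log2 fold change for BAT over eWAT was -4.47 ± 0.76 (adjusted p = 0.0317), and the ratio of summed counts per library total was 0.0412, with an exact 95% interval of 0.0149 to 0.092 that covers counting error only. BAT over iWAT gave -3.18 ± 0.79 (adjusted p = 0.141) and iWAT over eWAT -1.28 ± 0.57 (adjusted p = 0.595). The call against eWAT was lost without BAT replicate 2, either eWAT library or either iWAT library. It was also lost by limma voom (adjusted p = 0.051) and with only BAT and eWAT in the fit (0.0606). Each of these fits also called fewer genes over all tested genes. Without BAT replicate 1 the remaining BAT library had no count, so no size can be given. In mm9, Slc7a8 spans 55341052 to 55400723 on chromosome 14 (NM_016972, minus strand).

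Slc7a10 (Asc-1), an exchanger of small neutral amino acids such as serine that is known as a surface marker of white adipocytes, had 2.54 and 2.68 CPM in BAT, 8.66 and 8.55 in iWAT, and 8.62 and 8.25 in eWAT. The BAT libraries stood apart from the 4 white fat libraries, whose values overlapped. It was lower in BAT than in eWAT by a log2 fold change of -1.69 ± 0.34 (adjusted p = 0.0427). Against iWAT the value was nearly the same, -1.72 ± 0.34, but did not pass (adjusted p = 0.0934). The call was lost with any library left out. Every such fit except that without BAT replicate 1 also called fewer genes over all tested genes. The Slc7a10 call was also lost by the DESeq2 test (adjusted p = 0.0686), by limma voom (0.0631) and with only BAT and eWAT in the fit (0.0871). Its fold change stayed between -1.83 and -1.64 under every alternative run. Its 155 counts over all libraries include a stretch of 234 bases shared with Lrp3 on the opposite strand (767 counts). Since the strandedness of the libraries is not stated, reads from that stretch cannot be told apart. Slc7a10 lies on mm9 chromosome 7 from 35971404 to 35986130 (NM_017394, plus strand).

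**Figure D2:**
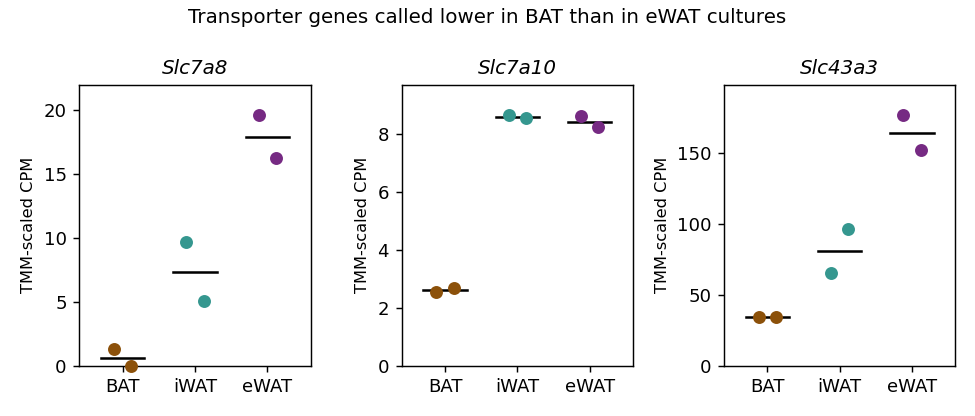
TMM-scaled CPM (linear axes from 0) of the 3 genes called lower in BAT than in eWAT, with BAT left, iWAT in the middle and eWAT right; each point is a library and each bar the mean of 2. Slc7a8 averages 0.634 in BAT, 7.33 in iWAT and 17.9 in eWAT, Slc43a3 averages 34.0, 80.6 and 164 in the same order, and Slc7a10 is near 2.61 in BAT and between 8.25 and 8.66 in the white depots.

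The summed level of macrophage markers was highest in eWAT, as Slc43a3 and Slc7a8 were, and 6 of the 12 were called lower in BAT than in eWAT (Cd68, Cd14, Itgam, Mrc1, Csf1r and Tyrobp). The macrophage sums of BAT and iWAT overlapped, and the levels of Slc43a3 and Slc7a8 did not. Taken singly, all 12 macrophage markers had a log2 fold change below 0 for BAT over iWAT, against 51.3% of all tested genes. Their median was -0.71, against -0.02 over all tested genes. The summed level of fibroblast markers was lower in BAT than in both white depots, as Slc7a10, Slc43a3 and Slc7a8 were. Of those 10 markers, 6 were called lower and 1 higher against eWAT, and 5 lower against iWAT. Their part in these differences was not tested.

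The remaining light chains did not pass in any contrast. Slc7a6 had 129 and 134 CPM in BAT, 107.3 and 91.01 in iWAT, and 86.7 and 89.6 in eWAT, so BAT lay above both white depots. Its log2 fold change was 0.58 ± 0.16 for BAT over eWAT (adjusted p = 0.088) and 0.41 ± 0.16 for BAT over iWAT (adjusted p = 0.287). Slc7a5 (LAT1), the leucine carrier of growing cells, had 8.24 and 16.8 CPM in BAT, 9.14 and 24.1 in iWAT, and 13.7 and 25.3 in eWAT, with overlapping depots. Slc7a11 (xCT), which imports cystine for glutathione synthesis in exchange for glutamate, had 18.0 and 26.4 CPM in BAT, 22.6 and 36.2 in iWAT, and 33.6 and 43.8 in eWAT, and its log2 fold change for BAT over eWAT was -0.81 ± 0.33 (adjusted p = 0.18). Slc7a7, the y+LAT1 chain that is abundant in macrophages, had 4.65 and 1.91 CPM in BAT, 4.57 and 4.27 in iWAT, and 10.5 and 7.40 in eWAT (BAT over eWAT -1.37 ± 0.48, adjusted p = 0.143). It overlaps Oxa1l (1577 counts) by 228 bases on the opposite strand.

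The cationic amino acid transporters, which carry arginine, lysine and ornithine, were tested for Slc7a1 and Slc7a2. Slc7a1 (CAT1) had 19.4 and 31.7 CPM in BAT, 30.6 and 47.5 in iWAT, and 44.0 and 33.3 in eWAT. Slc7a2 (CAT2), which supplies arginine in macrophages among other cells, had 7.61 and 5.35 CPM in BAT, 16.6 and 10.1 in iWAT, and 11.7 and 22.5 in eWAT. Both BAT libraries lay below both eWAT libraries for each gene, with log2 fold changes of -0.61 ± 0.34 (adjusted p = 0.312) and -1.36 ± 0.46 (adjusted p = 0.128), and neither passed. Slc7a3 (20 counts in all) and Slc7a4 (23) were below the filter.

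In the Slc38 family, system A transporters take up alanine, glutamine and other small neutral amino acids with sodium. Slc38a2 (SNAT2) had 167 and 196 CPM in BAT, 320 and 187 in iWAT, and 182 and 182 in eWAT, where 1 iWAT library was high and the others were close together. Slc38a4 (SNAT4), which is imprinted in the mouse, had 92 and 24 counts in BAT, 94 and 30 in iWAT, and 20 and 5 in eWAT. In CPM these were 19.4 and 9.18 in BAT, 22.6 and 7.54 in iWAT, and 4.66 and 1.42 in eWAT. Both eWAT libraries were below all 4 others, while BAT and iWAT overlapped. The log2 fold change was 2.21 ± 0.77 for BAT over eWAT (adjusted p = 0.137) and 2.26 ± 0.76 for iWAT over eWAT (adjusted p = 0.389), and neither passed. Slc38a1 (SNAT1) had 6.34 and 1.91 CPM in BAT, 6.50 and 3.27 in iWAT, and 10.0 and 10.2 in eWAT (BAT over eWAT -1.21 ± 0.58, adjusted p = 0.255).

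Of the other Slc38 genes, Slc38a6 (SNAT6) had 26.4 and 31.4 CPM in BAT, 37.0 and 39.0 in iWAT, and 47.3 and 52.3 in eWAT. These were 3 levels without overlap, yet its log2 fold change for BAT over eWAT, -0.79 ± 0.19, did not pass (adjusted p = 0.059). Slc38a10, the highest of this group per length, had 141 and 111 CPM in BAT, 224 and 170 in iWAT, and 209 and 182 in eWAT. Its log2 fold change was -0.63 ± 0.22 for BAT over eWAT (adjusted p = 0.138) and -0.64 ± 0.22 for BAT over iWAT (adjusted p = 0.225). Slc38a7, a lysosomal exporter of glutamine, had 22.6 and 21.0 CPM in BAT, 18.5 and 24.1 in iWAT, and 31.0 and 34.1 in eWAT. Slc38a9, the lysosomal arginine sensor that signals to mTORC1, ran from 20.0 to 28.7 CPM over all libraries, with every pair of depots overlapping. System N genes, which release or take up glutamine and histidine, were nearly silent: Slc38a3 had 2 counts over all libraries and Slc38a5 had 0, where up to 3 could be missed.

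In the Slc6 family, 3 genes were tested. Slc6a6, the taurine transporter, had 104 and 118 CPM in BAT, 88.3 and 78.7 in iWAT, and 166 and 132 in eWAT. The 3 depots did not overlap, with iWAT lowest. Its log2 fold change was -0.83 ± 0.19 for iWAT over eWAT (adjusted p = 0.185), -0.42 ± 0.19 for BAT over eWAT (adjusted p = 0.217) and 0.41 ± 0.19 for BAT over iWAT (adjusted p = 0.342). Slc6a13, a carrier of GABA and taurine, had 8.66 and 12.2 CPM in BAT, 2.65 and 3.27 in iWAT, and 5.13 and 3.70 in eWAT. The BAT libraries were above the other 4, by a log2 fold change of 1.22 ± 0.39 over eWAT (adjusted p = 0.116) and 1.80 ± 0.40 over iWAT (adjusted p = 0.122), and neither passed. Slc6a9, the glycine transporter GlyT1, had 3.17 and 4.59 CPM in BAT, 3.61 and 10.3 in iWAT, and 10.5 and 8.53 in eWAT (BAT over eWAT -1.32 ± 0.56, adjusted p = 0.205).

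A further 6 Slc6 genes had at least 10 counts but were below the filter. Slc6a19 (B0AT1), the neutral amino acid transporter of gut and kidney epithelium, had 9 and 11 counts in BAT, 0 and 1 in iWAT, and 1 and 1 in eWAT. Per library total, BAT over eWAT was a ratio of 9.69 (exact 95% interval 2.35 to 85.5) and BAT over iWAT one of 21.1 (3.37 to 873), which cover counting error only. Slc6a12, the betaine and GABA carrier, had 6 and 2 counts in BAT, 3 and 7 in iWAT, and 9 and 12 in eWAT, with a ratio of 0.369 for BAT over eWAT (0.141 to 0.868) and 0.438 for iWAT over eWAT (0.184 to 0.972). Slc6a17 had 16 and 1 counts in BAT, 7 and 1 in iWAT, and 4 and 0 in eWAT (BAT over eWAT 4.12, 1.34 to 16.8), so that 1 library held nearly all of its BAT counts. The serotonin transporter Slc6a4 had 0 and 1 counts in BAT, 0 and 5 in iWAT, and 2 and 6 in eWAT (BAT over eWAT 0.121, 0.00273 to 0.903). These intervals leave out the spread between replicates and were not adjusted for the number of genes. The others were Slc6a7 (15 counts in all) and Slc6a15 (12).

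Apart from Slc1a5, whose log2 fold change was 0.28 ± 0.38 for BAT over eWAT (adjusted p = 0.691) and 0.52 ± 0.38 for BAT over iWAT (adjusted p = 0.55), 3 Slc1 genes were tested. Slc1a3 (GLAST), a sodium-driven importer of glutamate and aspartate, had 148 and 82.6 CPM in BAT, 127 and 114 in iWAT, and 137 and 164 in eWAT. Slc1a4, the second exchanger of small neutral amino acids, had 35.5 and 27.5 CPM in BAT, 26.5 and 36.2 in iWAT, and 21.9 and 32.4 in eWAT, and per length Slc1a5 exceeded it from 35.6 to 73.2 times. Slc1a6, a glutamate transporter best known from the cerebellum, had 61 and 2 counts in BAT, 17 and 2 in iWAT, and 34 and 5 in eWAT, with replicate 1 above replicate 2 in each depot. None of these passed. Slc1a1 (18 counts), Slc1a2 (11) and Slc1a7 (10) were below the filter.

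**Figure D3:**
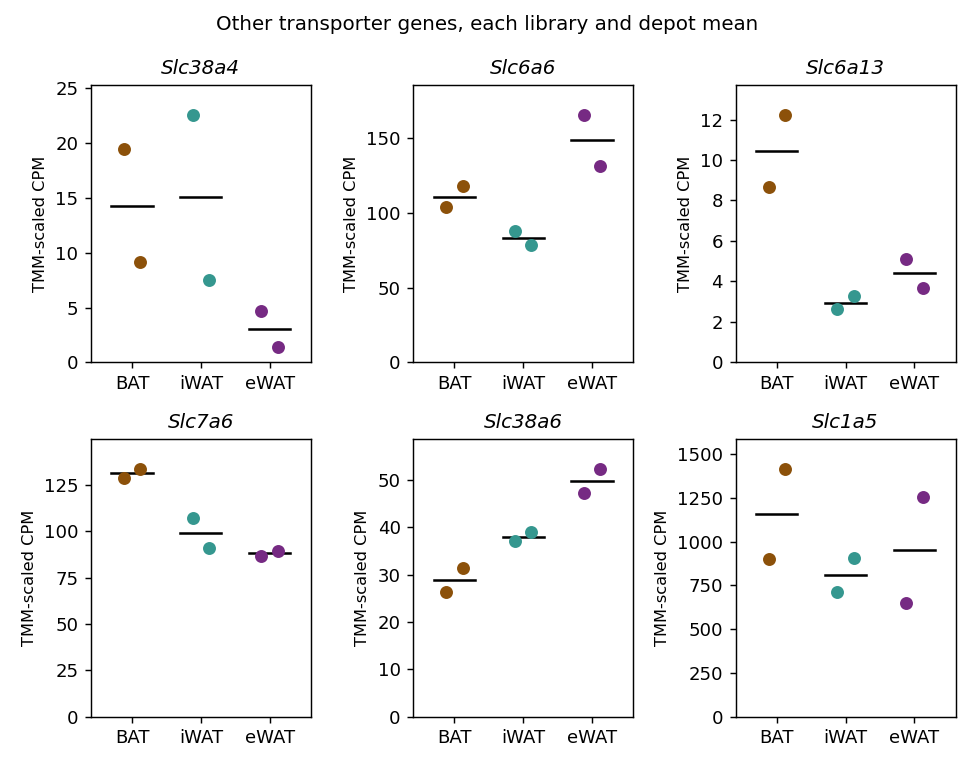
TMM-scaled CPM (linear axes from 0) of 6 transporters that did not pass the test in any contrast, with BAT left, iWAT in the middle and eWAT right; points are libraries and bars the mean of 2. Slc38a4 is lowest in eWAT, Slc6a6 lowest in iWAT, Slc6a13 and Slc7a6 highest in BAT, Slc38a6 forms 3 levels, and the Slc1a5 depots overlap.

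Between BAT and iWAT, 0 of the 26 transporters passed by edgeR, 7 had an unadjusted p below 0.05 (16.6% of all tested genes), DESeq2 called 2 (Slc7a8 and Slc43a3) and limma voom 0. Over all tested genes, 1.04% were called by edgeR, 0.895% lower and 0.145% higher. In all, DESeq2 called 485 genes and limma voom 69. Both BAT libraries lay below both iWAT libraries for 7 transporters (24.1% of all tested genes) and above them for 3 (23.9%). The median log2 fold change was -0.26 over the 26 and -0.02 over all tested genes, and 17 of the 26 values were below 0, against 51.3% of all tested genes.

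Between iWAT and eWAT, 0 of the 26 passed by edgeR, as did 0.0% of all tested genes. An unadjusted p below 0.05 was found for 5 (9.34% of all tested genes). DESeq2 called 1 (Slc43a3) among 276 genes in all, and limma voom called 0, with 1 gene in all. Both iWAT libraries lay below both eWAT libraries for 10 transporters (18.8% of all tested genes) and above them for 3, Slc7a6, Slc38a2 and Slc38a4 (19.2%). The median was -0.33 over the 26 and 0.01 over all tested genes, with 17 of the 26 values and 48.7% of all tested genes below 0. By depot mean, BAT was the highest depot for 6 of the 26 (38.8% of all tested genes), iWAT for 6 (25.8%) and eWAT for 14 (35.4%). The 3 contrasts share libraries, so these counts are not independent of one another.

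**Figure D4:**
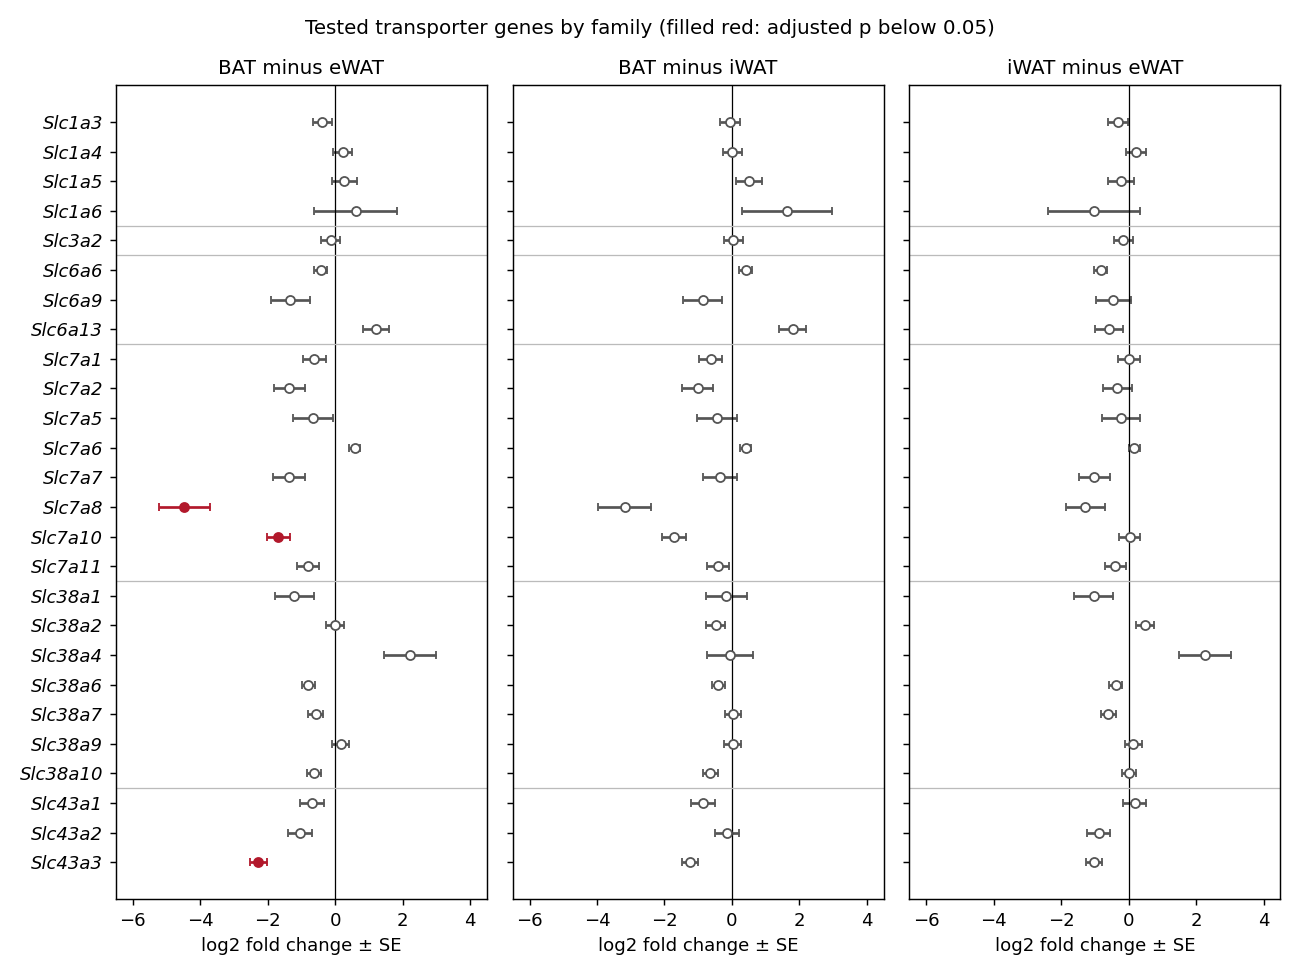
Log2 fold change with its SE (x axis) of the 26 tested transporters (y axis, by family) for BAT over eWAT, BAT over iWAT and iWAT over eWAT. Filled red points passed at an adjusted p below 0.05: Slc7a8 (-4.47), Slc7a10 (-1.69) and Slc43a3 (-2.27) in the left panel, and none in the others.

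The authors' deposited table holds their own test of the same libraries, whose fold changes had the same sign as those computed here for 98.8% of tested genes for BAT over eWAT. At an adjusted p below 0.05, the authors' deposited table called 11 of the 37 transporters lower and 3 higher in BAT than in eWAT, where it called 15.6% of all genes. Those higher were Slc6a13, Slc38a4 and Slc6a19 (log2 fold change 3.34 in the authors' deposited table, adjusted p = 0.000505). For BAT over iWAT the authors' deposited table had 5 lower and 3 higher, where it called 8.24% of all genes. For iWAT over eWAT the authors' deposited table had 7 lower, among them Slc6a6 (adjusted p = 4.03e-06), and 1 higher, Slc38a4 (adjusted p = 2.43e-10), where it called 8.52% of all genes. These 3 shares are over every gene of that table, with no limit on counts, so they are not a like base for the 37. Each of the 37 had at least 10 counts, as did 13507 of the 20295 genes in the count table.

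Of 9 tested amino acid and peptide transporters from a list outside these members, 1 passed for BAT over eWAT, against 6.46% of all tested genes. Slc15a3, a lysosomal peptide and histidine transporter of immune cells, had 2.11 and 0.382 CPM in BAT, 1.92 and 0.754 in iWAT, and 17.7 and 19.3 in eWAT, so that BAT was below eWAT (log2 fold change -3.68 ± 0.63, adjusted p = 0.0323). Macrophage markers, whose part was not tested, were likewise highest in eWAT. Slc36a2 (PAT2), a proton-coupled carrier of small amino acids known as a surface marker of brown and beige adipocytes, had 411 and 566 CPM in BAT, 219 and 205 in iWAT, and 240 and 313 in eWAT. Its BAT libraries were above the other 4, but the log2 fold change of 0.82 ± 0.23 over eWAT (adjusted p = 0.0875) and 1.20 ± 0.23 over iWAT (adjusted p = 0.0909) did not pass.

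Among genes of the amino acid response, which the factor Atf4 switches on when amino acids are short, 1 of 38 tested was called for BAT over eWAT, with a higher level in BAT, against 6.46% of all tested genes. For BAT over iWAT and iWAT over eWAT 0 were called, against 1.04% and 0.0%. Their median log2 fold change for BAT over eWAT was 0.20, against -0.03 over all tested genes. That gene was the lipoprotein receptor Vldlr, with 374 and 605 CPM in BAT, 292 and 332 in iWAT, and 121 and 199 in eWAT (BAT over eWAT 1.61 ± 0.33, adjusted p = 0.0446). TGATGNAA, the core of the element that Atf4 binds with its partners, occurred on either strand in 3.97% of all promoter windows. It occurred in 4 of the 45 transporter windows, which belonged to Slc1a4, Slc7a7 and Slc7a11 among the 27 transporters with a window. Overlapping windows of Slc7a7 shared a site, which was counted in each. The Slc7a11 promoter shown above held TGATGNAA at positions -66 to -59 on the gene's strand and -47 to -40 on the other, counted from the transcription start. A Slc7a7 window also held it at 2 places, -141 to -134 and -1 to 7, and 0.07% of all windows held 2 or more matches.

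Of 30 tested enzymes of glutamine, glutamate, serine and sulphur amino acid metabolism, 1 was called against eWAT and against iWAT (6.46% and 1.04% of all tested genes). This was Ggt5, which cleaves glutathione conjugates outside the cell. It averaged 10.0 ± 2.27 CPM in BAT, 97.6 ± 2.35 in iWAT and 62.6 ± 21.8 in eWAT, and its level in BAT was below that in eWAT (-2.62 ± 0.31, adjusted p = 0.0175) and that in iWAT (-3.26 ± 0.31, adjusted p = 0.0165). Of 37 genes of amino acid sensing upstream of mTORC1, 1 was called for BAT over eWAT, against 6.46% of all tested genes. This was the folliculin partner Fnip2, which averaged 29.4 ± 1.76 CPM in BAT, 51.8 ± 12.4 in iWAT and 74.2 ± 1.89 in eWAT (BAT over eWAT -1.34 ± 0.22, adjusted p = 0.0303).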

How the data were processed

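RNA was measured by sequencing of ribosome-depleted total RNA in 6 libraries. Per the submitters' processing notes, the authors aligned reads with STAR to mm9; the counting program, its version and the strandedness were not given in the sources used here. Whole-number read counts per gene were deposited, without normalization per the file headers. For every depot pair the authors deposited log2 fold changes with adjusted p-values; 6 further columns of per-library values in that table were not used. Starts were deposited counting from 0 and are given counting from 1.

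CPM were scaled by trimmed-mean (TMM) factors over the 11732 genes kept by filterByExpr, and CPM per kilobase used the deposited counted length. The edgeR 4.0.16 quasi-likelihood test (two-sided) used a single fit to the 6 libraries with no term but depot, and Benjamini-Hochberg adjustment over the tested genes of each contrast. The SE of a log2 fold change is its size over the root of the F statistic. The fit was tested on simulated data. Alternatives used limma 3.58.1 and DESeq2 1.42.0 in R 4.3.3; figures used matplotlib 3.10.9. Values in every library are given for called genes, for the 3 highest per length in each family, and for 7 chosen anchors. Those of the other tested members are added, except for Slc38a9, which is given by its range. The members and lists were chosen with earlier results of these data known.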

Additional observations from a re-analysis of the deposited data

How the results depend on the processing

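The count of transporters called for BAT over eWAT, 3 in the edgeR fit described, was 3 with DESeq2 size factors, 4 with library totals only and 2 by the DESeq2 test. Over all genes, 758 calls became 1937 with no filter and 1275 by the DESeq2 test. They became 556 by limma voom and 156 with only the 2 depots compared. The transporter count was 6 with no filter on low counts, 1 by limma voom and 1 with only the 2 depots compared; the cause was not tested. With a library left out it ran from 0 to 2. For BAT over iWAT, 0 became 4 with no filter and 2 by the DESeq2 test. Calls over all genes there rose from 122 to 780 and 485. For iWAT over eWAT, 0 became 3 with no filter and 1 by the DESeq2 test. Calls over all genes there rose from 0 to 557 and 276. Leaving out any library except BAT replicate 1 also lowered the calls over all genes for BAT over eWAT. Where 1 library of a depot remained, it was assumed to vary like the others. Slc43a3 for BAT over eWAT was called under 11 of 13 alternatives, Slc7a8 under 6 and Slc7a10 under 4, always in the same direction. Of 78 values (26 genes in 3 contrasts), 29 changed sign under at least 1 alternative, and none of these was called. The Slc1a5 value for BAT over eWAT ran from -0.11 to 0.83. Library totals alone shifted the median of all genes by -0.146 for BAT over eWAT.

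The labels give each depot replicates 1 and 2 without saying that the numbers mark a shared batch or animal. Deviations of same-numbered libraries correlated at 0.412 (BAT and eWAT), 0.448 (BAT and iWAT) and 0.556 (iWAT and eWAT) across 11732 genes. With a replicate block, 2780 genes in all were called for BAT over eWAT, against 758 without it, and 10 transporters were among them. For BAT over iWAT, calls over all genes rose from 122 to 1225, with 5 transporters among them. For iWAT over eWAT, calls over all genes rose from 0 to 563, with 3 transporters among them. Slc38a4 was among those called for BAT over eWAT and for iWAT over eWAT, both with the block and with no filter. At these depths 3 counts equal 0.624 to 1.038 CPM before TMM scaling, which leaves wide counting intervals in the genes below the filter.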

Other observations

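Some transporters followed the replicate number across depots, as many genes outside these families did. All 3 replicate 1 libraries were above all 3 replicate 2 libraries for Slc1a6, with 61, 17 and 34 counts against 2, 2 and 5 in BAT, iWAT and eWAT. The reverse held for Slc1a5, Slc3a2, Slc7a5 and Slc38a9, where all replicate 2 libraries were higher. Over all tested genes, 8.71% and 8.87% showed these patterns, so they are not particular to the transporters. Within each depot, replicate 1 was above replicate 2 for 5 of the 26 tested transporters (23.4% of all tested genes) and below it for 6 (25.3%). Slc38a4 was among the 5, with 92 against 24 counts in BAT, 94 against 30 in iWAT and 20 against 5 in eWAT. Slc6a17, which was not tested, had 16, 7 and 4 counts in the replicate 1 libraries and 1, 1 and 0 in the replicate 2 libraries of the same depots.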
